A study of Mus musculus with 6 samples.

Results

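The fibroblast and stromal markers examined here were 10 genes selected by symbol from the 21720 gene symbols of the series, namely Pdgfra, Pdgfrb, Fap, Acta2, Dcn, Lum, Postn, Pdpn, Thy1 and S100a4. All 10 genes were found and all 10 passed the filter on low counts. Tumour RNA was sequenced from young adult female BALB/c mice, labelled as wild type, that carried H22, a hepatocellular carcinoma line of the mouse, under the skin. The control group received the vehicle, 0.5% carboxymethyl cellulose sodium, and the luteolin group received 200 mg/kg luteolin, a plant flavonoid. Both groups were dosed daily for 21 days in 0.2 mL, starting per the labels at a tumour volume near 50 mm3. Each group gave 3 libraries, and the labels do not say which mouse each came from, so p values measure the spread between these samples, which may be technical. The comparison asks whether the stromal part of the tumour transcriptome differed after luteolin.

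Total counts ranged from 61081637 to 80442954 per library. Levels are given as CPM, counts scaled to the normalized library total and multiplied by 1e+06. The label of the tissue was checked against hepatoma genes, of which Trf and Afp were the most abundant. Trf had 321 ± 26.3 CPM without and 177 ± 92.2 CPM with luteolin, Afp had 56.5 ± 11.9 and 37.8 ± 4.67 CPM (SD, 3 libraries each), while Hnf4a did not pass the filter. Both lay lower with luteolin, whereas the other 8 tested genes of the list had positive log2 fold changes and the median of the list was 1.60. Apart from Gpc3, these 8 carried standard errors of 1.23 to 1.88 and were not called at the study's threshold. Among the controls they lay mainly in control replicate 2, as did Alb with 3.06, 60.3 and 0.868 CPM in control replicates 1, 2 and 3. Luteolin replicate 2 stood apart from the other libraries. A list of 12 keratinocyte genes summed to 9818 CPM there, against 418 and 22.5 CPM in luteolin replicates 1 and 3 and 5.75 to 6.60 CPM in the control libraries. Of these 12 genes, 8 had 0 counts in all control libraries, Krt14, Krt5, Krt1, Krt15, Krt17, Krt79, Dsg1a and Dsg3. The fold changes of the markers and the counts of each list were therefore also computed without luteolin replicate 2 and with luteolin replicate 3 alone against the controls, a subset chosen after the data had been seen, whose single library is assumed to vary like the others.

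Fibroblasts build the connective tissue framework of a solid tumour. They sense platelet-derived growth factors through receptor tyrosine kinases, secrete collagens and proteoglycans, and on activation acquire the contractile fibres and matrix glycoproteins of myofibroblasts. In lymphoid tissue a related cell, the reticular fibroblast, carries podoplanin and guides lymphocytes. Few of these markers belong to 1 cell type. Thy1 also marks mouse T cells, podoplanin also marks lymphatic endothelium, and S100a4 is made by many leukocytes and tumour cells. In bulk tissue, more cells of a type and more RNA per cell cannot be told apart.

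RefSeq promoter windows on GRCm38.p6 were found for 5 of the 10 genes, Pdgfra, Acta2, Postn, Pdpn and S100a4. The 250 bases before the start are shown for 3 genes that differ in their response, the contractile gene Acta2, the strongly raised Pdpn and S100a4, which lay lower. Capitals mark matches, on either strand, to the TATA box (TATAAA), the SMAD site (CAGAC) and the CArG box, the binding sequence of serum response factor, with at most 1 base other than A or T in its middle 6.
Acta2, chr19:34255374-34255623, minus strand: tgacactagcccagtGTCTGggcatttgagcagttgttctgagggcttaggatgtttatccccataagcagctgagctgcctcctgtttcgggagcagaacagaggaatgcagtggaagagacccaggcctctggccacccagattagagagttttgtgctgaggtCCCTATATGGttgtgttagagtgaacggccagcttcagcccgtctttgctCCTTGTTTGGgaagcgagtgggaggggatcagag
Pdpn, chr4:143299565-143299814, minus strand: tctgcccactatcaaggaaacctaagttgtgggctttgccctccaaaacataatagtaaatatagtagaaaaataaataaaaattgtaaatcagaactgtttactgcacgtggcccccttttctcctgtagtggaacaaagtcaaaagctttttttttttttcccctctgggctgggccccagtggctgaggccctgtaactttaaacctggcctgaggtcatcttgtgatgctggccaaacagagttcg
S100a4, chr3:90603520-90603769, plus strand: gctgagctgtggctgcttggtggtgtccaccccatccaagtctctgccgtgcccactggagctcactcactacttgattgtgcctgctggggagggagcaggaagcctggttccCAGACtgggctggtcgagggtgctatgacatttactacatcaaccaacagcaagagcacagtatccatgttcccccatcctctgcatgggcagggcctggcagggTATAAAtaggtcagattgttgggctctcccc

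Acta2 held 2 CArG matches, at -84 to -75 and -34 to -25 from the annotated start, whereas 8.59% of all 32851 windows of this length held at least 1. No other marker with a window held a CArG match. S100a4 had a TATA box at -31 to -26, as did 1 of the 2 windows of Postn at -26 to -21, a match that 12.4% of windows held. The SMAD letters were present in Acta2, S100a4, Pdgfra and the other window of Postn, and in 42.2% of all windows. These letters were not found in the window of Pdpn. A match is a description of the sequence, not a measured site.

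Most stromal markers were higher in the luteolin group compared with the control group. The threshold of the study is p under 0.05 before adjustment with an absolute log2 fold change above 1. At this threshold 5 of the 10 genes rose (Dcn, Pdpn, Thy1, Pdgfrb and Postn) and 0 fell, where the background over the 14963 genes tested was 11.3% higher and 1.52% lower. By p alone, 7 were higher and 1 was lower at p under 0.05 in edgeR, against a background of 14.0% and 6.44%. With Benjamini-Hochberg adjustment of the quasi-likelihood test of edgeR over all genes tested, Thy1 and Pdpn passed an adjusted p of 0.05, both higher, against a background of 1.34% higher and 0.187% lower. DESeq2, the tool of the study, called 8 of the 10 genes at an adjusted p under 0.05, 7 higher and 1 lower, against a background in DESeq2 of 9.79% higher and 2.92% lower. Fap and Lum were not called. In 7 genes every luteolin library lay above every control library (background 15.9%), and in 1 gene, S100a4, every luteolin library lay below (background 12.8%). The median log2 fold change was 1.20 over the markers and -0.01 over all genes tested. Without luteolin replicate 2, 6 genes rose and the median was 1.04, with a background of 7.52% higher and 1.84% lower. With luteolin replicate 3 alone against the controls, 5 rose and 1 fell (S100a4), with a median of 1.15 and a background of 4.95% higher and 2.02% lower. When a control library or luteolin replicate 1 was dropped, 0 of the 10 were left at an adjusted p under 0.05, while 7 or 8 of them then had an unadjusted p under 0.05 in edgeR. In each of these settings 0 genes were higher and 0 lower at the adjusted threshold over all genes tested, so the loss is not particular to the markers. Without luteolin replicate 3, Thy1 passed the adjusted threshold and Pdpn did not, where 154 genes were higher and 11 lower over all genes. The same genes, Thy1 and Pdpn, passed it without luteolin replicate 2, where 276 genes were higher and 36 lower.

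**Figure D1:**
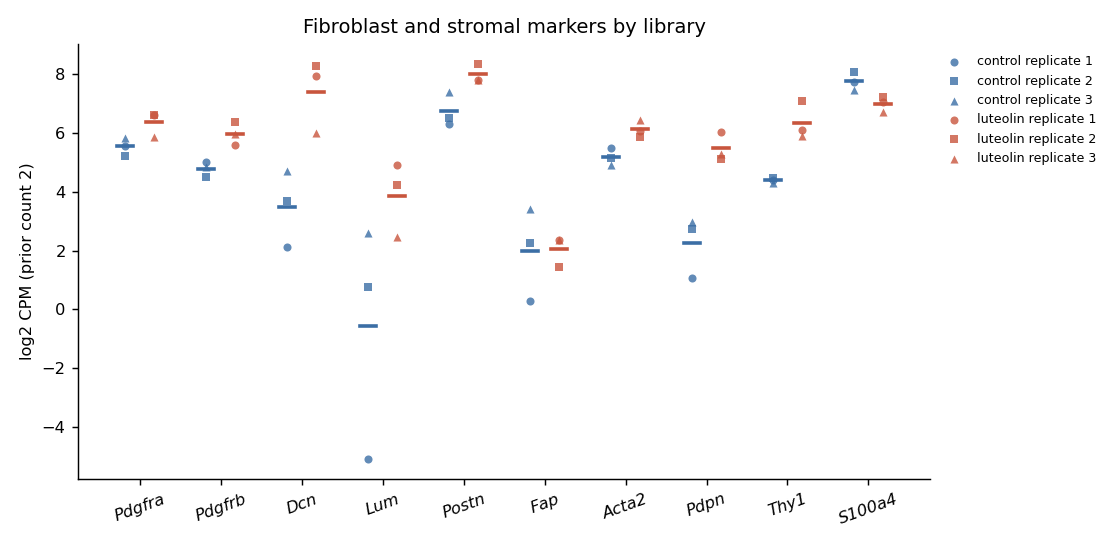
Level of each fibroblast and stromal marker in each of the 6 libraries, as log2 CPM with a prior count of 2 (vertical axis). Blue symbols are control and red symbols luteolin libraries, the symbol's shape gives the replicate, and short lines are group means. The groups separate for 8 of the 10 genes and overlap for Fap and Lum. Lum is lowest in control replicate 1, where it had 0 counts.

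The receptors of platelet-derived growth factor were examined first. Pdgfra, the receptor typical of matrix-forming fibroblasts, had 47.2, 37.6 and 57.8 CPM in control replicates 1, 2 and 3 and 96.9, 99.0 and 58.5 CPM in luteolin replicates 1, 2 and 3. The groups did not overlap, but luteolin replicate 3 exceeded the highest control only 1.01-fold. The difference was 0.83 on the log2 scale (standard error, SE, 0.26, adjusted p = 0.153 in edgeR's test), short of the threshold, and 0.32 with luteolin replicate 3 alone. With voom, a linear model with quality weights for the libraries, Pdgfra had 1.1 and passed the threshold. Pdgfrb, the receptor shared by fibroblasts and pericytes, had 32.5, 22.7 and 28.8 CPM in the control libraries and 48.1, 83.5 and 62.7 CPM in the luteolin libraries, in the same order. The lowest luteolin library lay 1.48-fold above the highest control. Pdgfrb rose by 1.21 on the log2 scale (SE 0.25, adjusted p = 0.0710 in edgeR's test) and by 1.18 with luteolin replicate 3 alone. With offsets for GC content and length the value was 0.90, below the fold change threshold. An exon of Pdgfra overlaps a predicted gene on the opposite strand, Gm42802, over 456 bases in GENCODE M21, so reads there could belong to either gene.

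Among the secreted matrix proteins, Dcn and Postn passed the study's threshold and Lum did not. Decorin (Dcn), a small leucine-rich proteoglycan that binds collagen fibrils, had 4.29, 12.8 and 26.0 CPM in control replicates 1, 2 and 3. In luteolin replicates 1, 2 and 3 it had 244, 309 and 63.7 CPM. Every luteolin library was higher, and the lowest lay 2.45-fold above the highest control. Dcn rose by 3.84 on the log2 scale (SE 0.82, adjusted p = 0.0754 in edgeR's test), the largest change among the 10 genes. The rise was 4.59 without control replicate 3, 3.45 without luteolin replicate 2 and 2.17 with luteolin replicate 3 alone. The luteolin libraries thus ranked for Dcn as they did for the keratinocyte sum, replicate 2 first and replicate 3 last. In luteolin replicate 3 the keratinocyte sum was 22.5 CPM, above the 5.75 to 6.60 CPM of the control libraries. Dcn was 4.44-fold above the control mean in that library. Whether skin tissue contributed to Dcn was not tested.

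Lumican (Lum), a close relative of decorin in the same family, had 0, 1.67 and 5.99 CPM in the control libraries and 30.0, 18.7 and 5.43 CPM in the luteolin libraries. A count of 0 in control replicate 1 allows up to 3 counts (0.0429 CPM), or 12 counts (0.172 CPM) if entries come in steps of 4. These limits cover counting error only. Control replicate 3 exceeded luteolin replicate 3, so the groups overlapped. The log2 fold change of 2.82 carried a standard error of 1.51 (adjusted p = 0.351 in edgeR's test) and did not pass. Lum passed the study's threshold with voom (4.27) and with offsets for GC content and length (3.02). Periostin (Postn), a matricellular protein of activated fibroblasts, had 79.5, 91.1 and 170 CPM in control and 225, 328 and 226 CPM in luteolin libraries. All luteolin libraries were above all controls, the lowest 1.33-fold above control replicate 3. Postn rose by 1.20 on the log2 scale (SE 0.32, adjusted p = 0.115 in edgeR's test). Without control replicate 1 the value was 0.96, below the threshold on the fold change, and with luteolin replicate 3 alone it was 1.02 with an unadjusted p of 0.0501 in edgeR's test.

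Fap, a membrane serine protease of activated fibroblasts, was, like Lum, a marker whose groups overlapped. It had 1.20, 4.80 and 10.8 CPM in control replicates 1, 2 and 3 and 5.19, 2.71 and 5.16 CPM in luteolin replicates 1, 2 and 3. The luteolin libraries lay within the range of the controls, which themselves spanned 8.97-fold. The log2 fold change was -0.36 with a standard error of 0.74 (adjusted p = 0.836 in edgeR's test). The sign was not stable, at 0.53 without control replicate 3 and 0.15 with voom. Fap, Dcn, Lum, Postn, Pdpn and Pdgfra were each highest, among the controls, in control replicate 3, and the coefficient of variation over the controls was 86.5% for Fap, 76.2% for Dcn and 121% for Lum against 6.14% for Thy1.

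Smooth muscle α-actin (Acta2), the contractile actin of myofibroblasts and vascular smooth muscle, had 45.4, 35.5 and 29.9 CPM in control and 66.7, 58.9 and 86.0 CPM in luteolin libraries. The groups did not overlap, and the lowest luteolin library lay 1.30-fold above the highest control. Luteolin replicate 3, which had the lowest level of Dcn and Pdgfra in its group, had the highest level of Acta2. The difference of 0.93 on the log2 scale (SE 0.22, adjusted p = 0.0956 in edgeR's test) stopped just short of the threshold. It passed without control replicate 1 (1.09), without luteolin replicate 2 (1.06) and with luteolin replicate 3 alone (1.23). Its coding sequence is close to those of the other actins, and reads may have been divided among them, so its level is uncertain to that extent. The skeletal muscle actin Acta1 had 205 ± 71.5 CPM without and 214 ± 176 CPM with luteolin (SD, 3 libraries each), a log2 difference of 0.06 that became -0.80 without luteolin replicate 2.

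The surface glycoproteins Pdpn and Thy1 were the markers that passed the adjusted threshold. Podoplanin (Pdpn), a mucin-type protein of reticular fibroblasts and lymphatic endothelium, had 2.08, 6.61 and 7.74 CPM in control replicates 1, 2 and 3. It reached 65.8, 34.8 and 39.1 CPM in luteolin replicates 1, 2 and 3. Each luteolin library exceeded the highest control at least 4.50-fold, the widest gap among the 10 genes. Pdpn rose by 3.09 on the log2 scale (SE 0.53, adjusted p = 0.0480 in edgeR's test). The rise was 3.28 without luteolin replicate 2 and 2.86 with luteolin replicate 3 alone. The list of 5 lymphatic endothelial genes summed to 5.37 to 6.81 CPM in the control libraries and to 19.4, 24.0 and 6.23 CPM in luteolin replicates 1, 2 and 3. In this list 0 of the 3 tested genes passed, and Lyve1 had 4.12 ± 1.10 and 9.25 ± 5.28 CPM in the control and luteolin groups (SD, n = 3 each), Flt4 1.51 ± 0.806 and 3.92 ± 3.09. In luteolin replicate 3 the lymphatic sum, mostly Lyve1 (4.32 CPM), lay within the control range. Pdpn was 7.14-fold above the control mean in that library. Whether lymphatic endothelium or skin contributed to Pdpn was not tested.

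Thy1, a glycolipid-anchored protein of fibroblasts and of mouse T cells, had 21.2, 22.1 and 19.6 CPM in the control libraries, the tightest control group of the 10 genes. It had 68.5, 136 and 59.6 CPM in the luteolin libraries, all at least 2.70-fold above the highest control. Thy1 rose by 2.07 on the log2 scale (SE 0.33, adjusted p = 0.0429 in edgeR's test), by 1.63 without luteolin replicate 2 and by 1.52 with luteolin replicate 3 alone. The T-cell list moved with it, with 9 of 9 genes higher at the study's threshold and a sum of 14.6 to 17.4 CPM in control libraries against 50.2, 97.0 and 59.6 CPM in luteolin replicates 1, 2 and 3. None of the T-cell genes was at 0 in all libraries of a group. Lck and Cd4, the most abundant of the list, had 14.0 ± 5.97 and 11.4 ± 5.43 CPM with luteolin against 3.57 ± 0.642 and 3.68 ± 1.12 CPM without (SD, 3 libraries each). The part of T cells in the value of Thy1 was not tested.

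S100a4, a small calcium-binding protein also known as fibroblast-specific protein, was the exception in direction. It had 216, 268 and 177 CPM in control replicates 1, 2 and 3 and 134, 150 and 105 CPM in luteolin replicates 1, 2 and 3. Every luteolin library lay below every control library. The log2 difference was -0.77 (SE 0.21, adjusted p = 0.120 in edgeR's test), short of the fold change threshold, and it ranged from -0.91 to -0.62 with each library left out in turn. With offsets for GC content and length it was -1.15, and with luteolin replicate 3 alone -1.06, both past the study's threshold. S100a4 made up 33.2% to 53.3% of the summed CPM of the 10 markers in the control libraries and 12.3% to 14.7% in the luteolin libraries. Without S100a4 the sum over the other markers was 233, 235 and 356 CPM in control and 850, 1070 and 607 CPM in luteolin libraries. Dcn and Postn weigh most in it. Of the sum over all 10 markers, Dcn made up 24.8%, 25.3% and 8.95% in luteolin replicates 1, 2 and 3. Postn made up 22.9%, 26.9% and 31.8% there, so the sum does not stand for each marker. Exons of S100a4 share 302 bases with the predicted gene Gm42674 on the same strand in GENCODE M21.

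**Figure D2:**
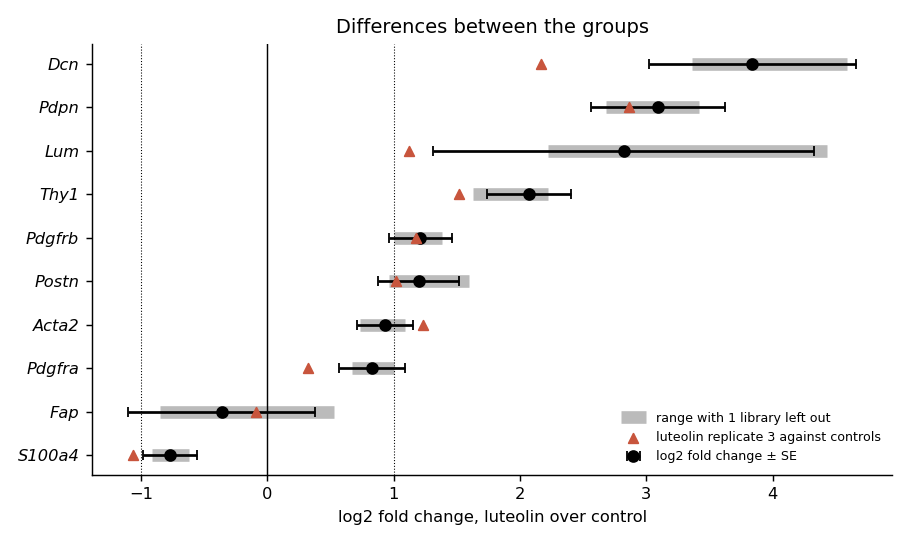
Log2 fold change, luteolin over control (horizontal axis), of each marker (black points) with its standard error (bars). Grey bands give the range with each of the 6 libraries left out in turn, red triangles the value for luteolin replicate 3 alone against the 3 controls, and dotted lines a log2 fold change of -1 and 1. Dcn is highest at 3.84 and S100a4 lowest at -0.77, and the band of Fap crosses 0.

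Divided by exon length, the levels could be compared roughly between genes. The lengths cover all annotated exons of a gene in GENCODE M21, while the build behind the counts is not clear. For S100a4, 302 of 498 bases are shared with Gm42674, so its place is the less certain. In the control group S100a4 was highest with 442 ± 91.9 CPM per kb of exon, followed by Postn (34.5 ± 14.9), Acta2 (18.2 ± 3.84) and Thy1 (11.2 ± 0.685) (SD, n = 3 each). These 4 levels did not overlap between neighbours. From Thy1 downward, Dcn (7.40 ± 5.64), Pdgfra (5.42 ± 1.15), Pdgfrb (5.11 ± 0.906), Pdpn (3.01 ± 1.65), Fap (2.03 ± 1.76) and Lum (1.04 ± 1.26) each overlapped with the next. In the luteolin group S100a4 was again highest (260 ± 45.9 CPM per kb), but Dcn came next (106 ± 65.5), overlapping with Postn (79.0 ± 17.9). Thy1 (46.8 ± 22.1), Acta2 (34.7 ± 6.85) and Pdpn (25.6 ± 9.23) followed, each overlapping with its neighbours. Pdgfrb (11.8 ± 3.25) lay apart from Pdpn, and it overlapped with Pdgfra (9.67 ± 2.60), which overlapped with Lum (7.37 ± 5.03). Fap was lowest with 1.58 ± 0.519 CPM per kb, below Lum in every luteolin library.

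**Figure D3:**
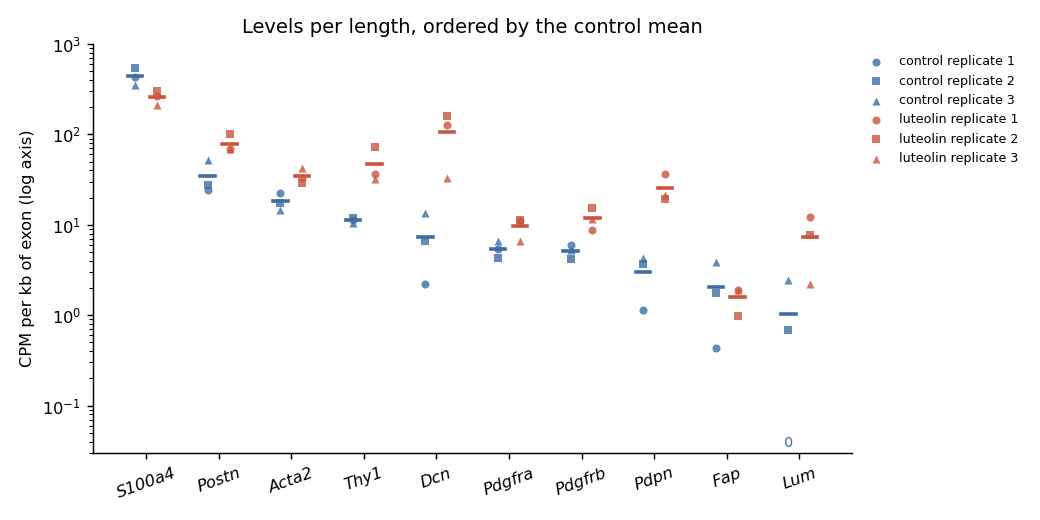
Level of each marker as CPM per kb of exon on a log axis, ordered by the control mean. Blue symbols are control and red symbols luteolin libraries, shapes give the replicate and short lines the group means, and the digit 0 marks Lum in control replicate 1, which had 0 counts. Dcn moves from the fifth place in the control group to the second in the luteolin group.

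Ratios within a library need no scaling between libraries, and 4 of them were tested. The log2 ratio of Postn to Dcn counts was 4.21, 2.84 and 2.71 in control and -0.11, 0.09 and 1.83 in luteolin replicates 1, 2 and 3, so that every control library lay above every luteolin library. The difference was -2.65 (exact two-sided permutation test, p = 0.1, the smallest that 3 against 3 libraries allow, adjusted p = 0.4 over the 4 ratios). The ratio of Acta2 to Dcn had means of 1.69 ± 1.61 in control and -1.28 ± 1.50 in luteolin libraries (SD, n = 3 each, exact permutation p = 0.2, adjusted p = 0.4). Luteolin replicate 3 (0.43) lay above control replicate 3 (0.20) in this ratio. The log2 ratio of Pdgfrb to Pdgfra differed by 0.37 (exact permutation p = 0.4, adjusted p = 0.533), within the spread of the luteolin libraries from -1.01 to 0.10. The ratio of Lum to Dcn had an exact permutation p of 1, and its difference of 0.89 turned to -1.02 without control replicate 1, the library with 0 counts of Lum. No ratio could pass an adjusted p of 0.05 in this design.

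**Figure D4:**
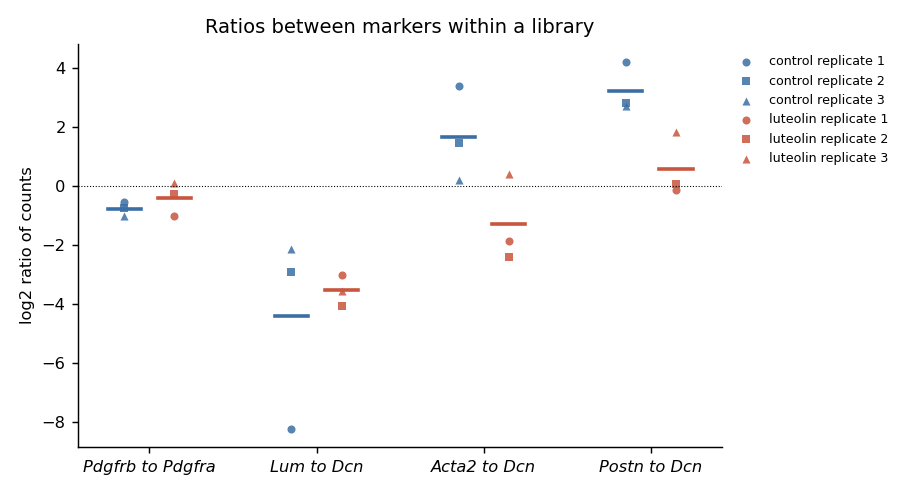
Log2 ratio of counts between pairs of markers within each library (vertical axis, pseudocount 1). Blue symbols are control and red symbols luteolin libraries, shapes give the replicate and short lines the group means. Postn to Dcn is the pair without overlap between the groups, and the lowest point of Lum to Dcn, -8.23, is control replicate 1.

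Other genes of the stroma were described by lists. Of the 4 PDGF ligands, Pdgfb rose with a log2 fold change of 1.12 (0.62 without luteolin replicate 2), while Pdgfa and Pdgfc had values of 0.93 and 0.81 and did not pass (list median 0.87). Among 8 fibrillar and type VI collagens 6 rose and 0 fell, with a median of 1.16. Col3a1, Col1a1 and Col1a2, the main fibrillar chains, rose by 1.23, 1.41 and 1.06, and Col6a3 and Col5a1 by 1.58 and 1.66. For the last pair edgeR's test gave an adjusted p of 0.0306 and 0.0331. Without luteolin replicate 2, Col1a2 had 0.78 and was not called. With luteolin replicate 3 alone 3 of 8 collagens rose, and Col3a1, Col1a1 and Col1a2 had 0.20, 0.65 and 0.44 and were not called. The other small leucine-rich proteoglycans were divided. Of 9 tested genes 3 rose, namely Bgn (1.36), Prelp (2.74) and Podn (3.28), 0 fell and the median was -0.31.

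Contractile genes other than Acta2 were read as a list. Of its 13 genes 2 rose, Myl9 (1.37) and Myh11 (1.46), and 0 fell, with a median of 0.35, where the background of genes called higher was 11.3%. The most abundant, Cald1, Tpm1 and Des, had log2 fold changes of -0.11, -0.04 and 0.01. Of 9 pericyte genes 2 rose, Cspg4 (1.95) and Ndufa4l2 (2.17), 0 fell and the median was 0.13, with Mcam at -0.05, Rgs5 at -0.19 and Notch3 at 1.15, the last becoming -0.13 without luteolin replicate 2.

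Fibroblast matrix and reticular genes came next. In the adventitial and dermal fibroblast list 9 of 13 tested genes rose and 0 fell, with a median of 1.60, among them Fbln2 (1.60, adjusted p = 0.0394 in edgeR's test) and Serpinf1 (1.16, adjusted p = 0.0331 in edgeR's test), while Pcolce had 0.19. With luteolin replicate 3 alone 4 of 13 rose. In the activated fibroblast list 10 of 18 genes rose and 0 fell, with a median of 1.28 (1.17 without luteolin replicate 2 and 0.81 with luteolin replicate 3 alone). Loxl2, which crosslinks collagen, rose by 1.72, Col12a1 by 2.20 and the glycoprotein Tnc by 2.11, while Sparc had 0.96 and did not pass. Fn1, by far the most abundant of the list with 16110 ± 2979 and 12170 ± 3912 CPM in control and luteolin libraries (SD, 3 libraries each), had a log2 value of -0.40 (adjusted p = 0.426 in edgeR's test). In the reticular stroma list 6 of 7 tested genes rose and 0 fell, with a median of 2.08 (2.19 without luteolin replicate 2). With luteolin replicate 3 alone, where 9 genes passed the filter, the median was 1.78. The genes that rose included Bst1 (1.71), Ch25h (2.08), Il33 (2.41) and Cxcl13 (4.14, and 2.86 without luteolin replicate 2), a chemokine for B cells. Another was Ccl21a, with 3.71, 23.2 and 0.689 CPM in luteolin replicates 1, 2 and 3. It had 0.458, 0.139 and 0 CPM in control replicates 1, 2 and 3. Its log2 fold change of 5.51 carried a standard error of 1.71 (adjusted p = 0.15 in edgeR's test). Ccl19 and Madcam1 did not pass the filter in the main fit. With luteolin replicate 3 alone, Il33 had 1.37 and Myh11 0.86, and neither was called.

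**Figure D5:**
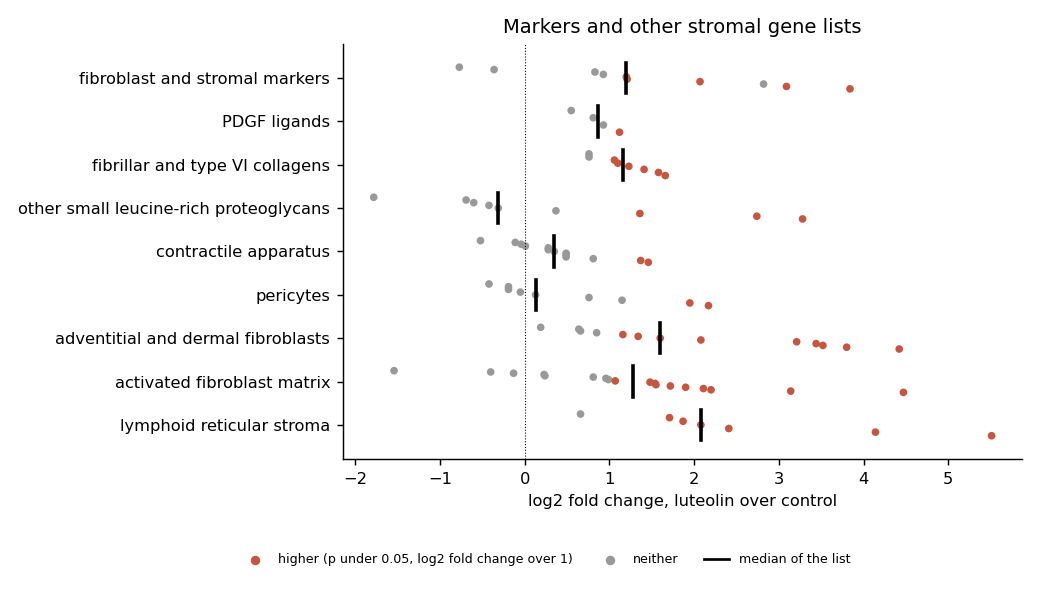
Log2 fold change, luteolin over control (horizontal axis), of each tested gene in the list of markers and in 8 other stromal lists. Red points are genes higher at the study's threshold, grey points are the rest and black lines list medians. The medians run from -0.31 for the other small leucine-rich proteoglycans to 2.08 for lymphoid reticular stroma.

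Markers of other cell types were read beside these values. Over all genes tested, 11.3% were called higher and 1.52% lower, and without luteolin replicate 2 these shares were 7.52% and 1.84%. All 11 tested keratinocyte genes were higher, or 7 with luteolin replicate 3 alone. Among them were Krt14 with 0 counts in every control library and 9606, 203754 and 277 in luteolin replicates 1, 2 and 3, and Krt10 with 3744, 168210 and 272 counts against 208 to 277. For the 10 blood endothelial genes the sum was 109 to 127 CPM in control libraries and 212, 378 and 124 CPM in luteolin replicates 1, 2 and 3, with 4 genes higher, 1 without luteolin replicate 2 and 0 with luteolin replicate 3 alone. Pecam1 rose by 1.05 on the log2 scale, a call lost without luteolin replicate 2 (0.72), and Cdh5 had 0.67. Macrophage genes summed to 1000 to 1172 CPM against 1579 to 2362, with 3 of 10 higher. Their most abundant members, C1qa and C1qc, had values of 0.80 and 0.91 and did not pass. Adipocyte genes, with 0 of 6 called, summed to 5.68 to 38.6 CPM in control libraries and 30.2, 275 and 7.07 CPM in luteolin replicates 1, 2 and 3. Cfd and Plin4 had log2 fold changes of 3.53 and 1.99 with standard errors of 2.25 and 1.01, which became 0.53 and 0.08 without luteolin replicate 2. Skeletal muscle genes summed to 595 to 1317 CPM against 306 to 1339, with 1 of 10 lower, 3 without luteolin replicate 2 and 4 with luteolin replicate 3 alone. Myh4 had a value of -1.29 and did not pass the threshold, but passed it without luteolin replicate 2 (-2.45). The sum was 190 to 228 CPM against 139 to 183 for 5 mesothelial genes, nearly all of it Msln (-0.42, with Wt1 at 0.74), and 0 of the 2 tested genes passed. The hepatoma list summed to 368 to 432 CPM against 209 to 362, with 1 of 10 tested genes higher and 0 lower and a median of 1.60. Trf and Afp had log2 fold changes of -0.86 and -0.58, and the gene called higher was Gpc3 (2.73), named after its value was seen. The part of these cell types in the stromal values was not tested.

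The profile of each marker over the 6 libraries was compared with 164 other genes of these lists, by the root mean square difference of log2 CPM after centring each gene on its mean. This centring keeps the difference between the groups, so genes with similar fold changes lie near each other. A shared cell of origin was not tested. Thy1 was nearest to Cd3e, a chain of the T-cell receptor complex, at 0.14, and next to Tnc at 0.24. Pdgfrb was nearest to Cd68 (0.18) and Bgn (0.22), and Dcn to Dpt (0.21) and then to Clec3b (0.74). Pdgfra lay closest to Sparc (0.23) and Pecam1 (0.24), Acta2 to Pdgfa (0.23) and Tagln (0.25), and Postn to Adgre1 and Cd4 (0.28 each). For S100a4 the nearest were Afp (0.21) and Msln (0.26). Pdpn (Il33, 0.56, and Pi16, 0.59), Fap (Ecm2, 0.58, and Aspn, 0.59) and Lum (Efemp1, 1.13, and Dcn, 1.63) had no gene as near. Only Lum had another of the 10 markers, Dcn, among its nearest pair.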

How the data were processed

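Per the labels and the study's text, 6 tumour libraries were sequenced, 3 in each group, and 0 columns of the table were left out. The authors deposited 1 table of integers by gene symbol, which had not been scaled between libraries. Among its entries between 1 and 40, 70.3% were a multiple of 4 or the next integer. The deposited entries were thus treated as estimated counts, and a step of 1 may not equal a read pair. The submitters' processing notes list bcl2fastq 2.0, HISAT2, StringTie and DESeq2 and the builds rn6 and mm39 without roles, so no gene positions were assigned to the counts. Strandedness is not given in the sources used here. The study's text names Trizol and a TruSeq kit, and the labels an RNeasy and a SMARTer kit.

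Groups were compared with edgeR 4.0.16 under R 4.3.3, by TMM normalization, filterByExpr and a quasi-likelihood test without covariates. Two-sided p values of the 14963 genes tested were adjusted by the Benjamini-Hochberg method. CPM used the TMM-normalized totals, and log2 CPM a prior count of 2. Exon lengths came from GENCODE M21 (GRCm38), in which 21053 of the 21720 symbols were found. Ratios of counts, with a pseudocount of 1, were tested by exact permutation in scipy 1.17.1. Alternatives were DESeq2 1.42.0, voom of limma 3.58.1 with weights for library quality, scaling by RLE or the upper quartile, no filter, at least 10 counts in every library, division of all entries by 4, corrections for GC content and length by spline offsets, a block for the replicate number, a pseudocount of 12 for ratios, and omission of single libraries. The code was tested on simulated data. Same-numbered libraries of the groups showed little joint deviation, a check that cannot exclude a weak pairing.

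The markers, lists and tests were chosen with earlier results of these data known. Named genes were the 10 markers, the 3 most abundant genes and up to 2 genes with the smallest p at the study's threshold of each stromal list, the 2 most abundant of each other list (for 1 list these are not reported here), and the 2 genes nearest in profile to each marker.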

Additional observations from a re-analysis of the deposited data

How the results depend on the processing

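Over the 10 markers, 146 of 159 log2 fold changes kept their direction and their side of the study's threshold under the alternatives run, 3 lost the call, 8 gained it and 2 changed sign, both for Fap (0.15 with voom and 0.53 without control replicate 3, range -0.85 to 0.53 with each library left out). The 5 markers called higher ranged from 5 to 6 with each library left out and became 7 with voom. S100a4 was the 1 marker called lower with GC and length offsets and with luteolin replicate 3 alone. At an adjusted p under 0.05 the count of 2 markers became 8 with DESeq2, 8 with voom, 1 with no filter on low counts, 5 with GC and length offsets, 0 with luteolin replicate 3 alone and 0 to 2 with each library left out. Same-numbered libraries of the groups showed little joint deviation from their group means (correlations of deviations -0.196, -0.092 and 0.063), a check that cannot exclude a weak pairing. With the replicate number as a block 0 markers passed an adjusted p of 0.05 while 8 had an unadjusted p under 0.05 in edgeR, and 34 genes were higher and 1 lower at an adjusted p under 0.05. Lum could not be tested with at least 10 counts in every library.

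Over all genes, 1687 were higher and 227 lower at the study's threshold. The lower count was 498 with voom, 463 with GC and length offsets and 140 to 305 with each library left out, and the higher count was 772 with luteolin replicate 3 alone. At an adjusted p under 0.05 the 200 higher and 28 lower genes became 1421 and 424 with DESeq2, 1886 and 1311 with voom, 345 and 47 with at least 10 counts in every library, 327 and 46 with values divided by 4, 557 and 305 with GC and length offsets, 4 and 1 with luteolin replicate 3 alone, and 0 to 276 and 0 to 36 with each library left out.

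The log2 ratio Lum to Dcn changed sign with a pseudocount of 12 counts (-0.32) and ranged from -1.02 to 2.04 with each library left out. Of 973 values for the other named genes 872 kept direction and side of the threshold, 32 lost the call, 33 gained it and 36 changed sign. With luteolin replicate 3 alone the sign changed for Cald1 (0.20), Des (-1.33), Pcolce (-0.19), Cdh5 (-0.67), Flt4 (-0.09), Cfd (-1.08), Plin4 (-0.80) and Acta1 (-1.48). With voom it changed for Aspn (0.78), Cald1 (0.12), Notch3 (-0.08) and Acta1 (-0.32), and with GC and length offsets for Des (-0.47), Pcolce (-0.14) and Acta1 (-0.55). Other settings turned Tpm1 (0.01, upper-quartile normalization), Des (-0.02 with DESeq2, -0.02 with RLE, -0.03 with no filter and -0.14 with the replicate block) and Acta1 (-0.21 with the replicate block). With each library left out the range crossed 0 for Aspn (-0.84 to 0.70), Cald1 (-0.32 to 0.13), Tpm1 (-0.19 to 0.01), Des (-0.52 to 0.33), Mcam (-0.26 to 0.11), Rgs5 (-0.42 to 0.11), Notch3 (-0.13 to 1.56) and Acta1 (-0.80 to 0.41). The cause was not tested.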
